A study of Homo sapiens with 14 samples.

Results

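Interferon-stimulated genes are the genes that cells switch on when interferon signals through its receptors. The 53 described here are a list of well-known members that was chosen with earlier results of these data known. Counts and medians over the list are therefore a description and not an independent test. The genes were matched by symbol through GENCODE 29. All 53 were found among the 58037 gene identifiers of the count table.

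The RNA came from OCI-AML2, an established human acute myeloid leukaemia cell line grown in culture, and from derivatives that carry the nonsense allele R174* of RUNX1, a haematopoietic transcription factor, beside a wild-type allele (Runx1R174*/wt). The 14 libraries were 4 mutant total RNA libraries treated for 8 h with 100 nM HHT (homoharringtonine, an inhibitor of translation elongation), 4 mutant control libraries, 2 mutant and 2 wild-type RiboLace libraries, and 2 wild-type total RNA libraries of the parent line. Mutant cells came from 2 lines named F3 (replicates 1 and 2) and G7 (replicates 3 and 4), and the mutant RiboLace libraries came from F3. RiboLace pulls down ribosomes in active translation through a puromycin analogue, so its reads come from RNA held by such ribosomes. The labels give the parent total RNA no treatment and the mutant controls a control treatment of 8 h with DMSO as the vehicle, while another label of the same controls gives 0 h. Genotype and control treatment therefore cannot be told apart, nor can HHT and time in culture if 0 h is right. The wild type was the parent line alone, whether F3 or G7 is a single clone is not said, and nothing says that replicates were separate cultures, so that p-values measure only the spread between these libraries, which may be technical.

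In this pathway, double-stranded RNA or DNA in the cytosol is read by sensors that lead to secretion of type I and type III interferons. The receptors activate JAK kinases and the STAT proteins, and STAT2 with its partners binds interferon-stimulated response elements in target promoters. The products block viral entry, translation and replication, mark proteins with ISG15, and include the sensors themselves. In myeloid leukaemia cells the same genes respond to interferon made by the cells or added as treatment.

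Total RNA libraries held 19250789 to 21925693 counts, and every one of them had at least 10 reads for each of the 53 genes. RiboLace libraries were shallower, at 1192811 and 465052 counts in F3 and 2034796 and 1054581 counts in wild type, and 30 to 42 of the 53 genes reached 10 reads there. Myeloid and haematopoietic markers such as PTPRC, SPI1 and LYZ were read in every library, and the globin genes HBB and HBA1, the platelet genes PF4 and PPBP and the epithelial gene EPCAM were at 0 in all 14. Other markers went the other way. The myeloid markers CSF1R, ITGAM and CD14 were at 0 in some RiboLace libraries. PECAM1, NKG7 and TCF4, listed for other cell types, were read in every library. The fibroblast gene COL1A1 reached 5.78 to 22.7 scaled counts per 1e6 in RiboLace. RUNX1 itself had 80 and 84.3 counts scaled to a library of 1e6 (CPM) in F3 controls, 134 and 117 CPM in G7 controls and 142 and 132 CPM in wild type, and gene counts do not show which allele was read. CPM values here were scaled by the trimmed mean of M values (TMM) and are shares of a library, so in these bulk samples fewer cells of a type and less RNA per cell cannot be told apart. Tests used edgeR's quasi-likelihood F-test across all genes with Benjamini-Hochberg adjustment, and a gene is called where the adjusted p is under 0.05.

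The promoters of many of these genes share a letter pattern of interferon target promoters. RefSeq windows of 250 bases before to 50 bases after the gene start (GRCh38.p14) were at hand for 43 of the 53 genes and were searched on both strands for GAAANNGAAA, the core of the interferon-stimulated response element, with overlapping matches counted separately. The pattern was found in 25 of the 43 windows (58.1%), against 1255 of all 35116 windows (3.57%). All windows were counted without regard to gene type or to reads in these cells, whereas the 53 are all protein-coding and were read here. The shares therefore come from unlike sets of genes. The sequences given here are 5 windows with matches, of genes that differ widely in how they moved, and 1 without, with the matches on either strand in capitals, 5′ to 3′ in the direction of the gene. A match is a description of letters and not a measured binding site.
ISG15 (chr1:1013247-1013546, plus strand): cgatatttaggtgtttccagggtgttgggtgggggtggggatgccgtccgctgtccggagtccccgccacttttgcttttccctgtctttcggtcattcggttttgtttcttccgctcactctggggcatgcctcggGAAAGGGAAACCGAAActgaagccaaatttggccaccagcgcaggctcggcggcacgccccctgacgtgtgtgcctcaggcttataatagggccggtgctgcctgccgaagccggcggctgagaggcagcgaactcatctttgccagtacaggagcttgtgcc
IFIT1 (chr10:89392373-89392672, plus strand): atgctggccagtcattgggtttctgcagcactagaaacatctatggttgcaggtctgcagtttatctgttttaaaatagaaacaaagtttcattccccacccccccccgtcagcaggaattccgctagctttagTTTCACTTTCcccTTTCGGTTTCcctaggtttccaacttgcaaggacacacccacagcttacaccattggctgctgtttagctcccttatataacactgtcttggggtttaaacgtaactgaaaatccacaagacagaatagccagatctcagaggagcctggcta
IFI27 (chr14:94110486-94110785, plus strand): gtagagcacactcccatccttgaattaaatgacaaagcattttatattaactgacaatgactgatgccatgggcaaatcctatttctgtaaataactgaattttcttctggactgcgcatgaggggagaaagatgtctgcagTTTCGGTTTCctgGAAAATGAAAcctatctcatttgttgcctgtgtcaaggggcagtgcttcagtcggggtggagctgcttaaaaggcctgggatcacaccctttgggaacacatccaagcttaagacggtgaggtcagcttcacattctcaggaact
BST2 (chr19:17405581-17405880, minus strand): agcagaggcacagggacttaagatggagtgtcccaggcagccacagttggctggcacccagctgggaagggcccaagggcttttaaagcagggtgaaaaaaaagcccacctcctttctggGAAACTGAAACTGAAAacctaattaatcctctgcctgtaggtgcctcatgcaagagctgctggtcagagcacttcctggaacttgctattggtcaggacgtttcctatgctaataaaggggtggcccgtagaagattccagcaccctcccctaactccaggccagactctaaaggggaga
IFI6 (chr1:27672143-27672442, minus strand): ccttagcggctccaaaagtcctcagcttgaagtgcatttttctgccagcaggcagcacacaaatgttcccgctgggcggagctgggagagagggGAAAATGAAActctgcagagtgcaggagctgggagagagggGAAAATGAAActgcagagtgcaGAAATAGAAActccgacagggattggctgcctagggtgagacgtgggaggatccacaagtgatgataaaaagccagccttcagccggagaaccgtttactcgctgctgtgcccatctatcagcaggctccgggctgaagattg
HELZ2 (chr20:63574190-63574489, minus strand): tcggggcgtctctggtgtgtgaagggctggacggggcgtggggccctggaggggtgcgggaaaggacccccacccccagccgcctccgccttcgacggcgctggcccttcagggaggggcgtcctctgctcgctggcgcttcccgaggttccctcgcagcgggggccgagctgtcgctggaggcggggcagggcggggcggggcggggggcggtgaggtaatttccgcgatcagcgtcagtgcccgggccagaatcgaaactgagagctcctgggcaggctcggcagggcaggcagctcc
ISG15, BST2 and IFI6 have their matches in the forward direction, overlapping in ISG15 and BST2, and IFIT1 has both matches on the other strand. IFI27 has 1 match on each strand. HELZ2 has no match in this window, yet it had the largest HHT rise of the 53. Matches were also absent from the windows of STAT2, OAS1, RSAD2 and CMPK2, all of which were called higher in F3. Only the exact pattern was sought, so near variants count as no match. The windows of OAS1 and RSAD2, for example, hold GGAAACGAAA. A window without a match is therefore not shown to lack a response element.

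Many of the 53 genes are neighbours. IFIT2, IFIT3, IFIT1 and IFIT5 lie between 89283694 and 89421001 on chromosome 10, and OAS1, OAS3 and OAS2 between 112906777 and 113011723 on chromosome 12 (GENCODE 29 coordinates on GRCh38). IFITM2, IFITM1 and IFITM3 lie between 307631 and 327537 on chromosome 11. Exons of 19 of the 53 genes overlap an exon of another gene, 16 of them on the other strand, and whether strand was used in counting is not given in the sources used here. Counts of IFITM1 and IFITM2, of PARP9 and DTX3L, of RSAD2 and CMPK2, and of IFIT2 and LIPA could therefore be split uncertainly.

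Expressed per kilobase of exon, BST2 and IFITM2 led in mutant controls, with mean levels of 175 and 105 CPM per kb in F3 and 184 and 133 CPM per kb in G7. In wild type IFITM2 led with 106 CPM per kb and BST2 followed with 77.1 CPM per kb. Under HHT the order changed, and ISG15 led with 173 CPM per kb in F3 and 74.2 CPM per kb in G7. MX1 was among the 2 lowest in each of these groups, at 0.148 to 0.257 CPM per kb.

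The first question the design poses is how the RUNX1 mutant lines differ from their parent. Summed over the 53 genes, total RNA held 2924 and 2913 CPM in F3 controls, 2272 and 2301 CPM in G7 controls and 1680 and 1748 CPM in wild type. All 4 mutant controls lay above both wild-type libraries. In F3 controls against wild type, 43 of the 53 genes were called higher and 0 lower, beside 9.51% of all 13949 genes tested called higher and 8.54% lower. At an unadjusted p under 0.05 edgeR still found 0 lower, and DESeq2 called 43 higher and 0 lower. The median log2 fold change was 1.02 over the 53 genes and -0.007 over all genes. In G7 controls against the same wild-type libraries, 33 were called higher and 4 lower, beside 8.87% and 8.82% of all genes, with a median of 0.50 against 0.001 over all genes. Both comparisons share the wild-type libraries.

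**Figure D1:**
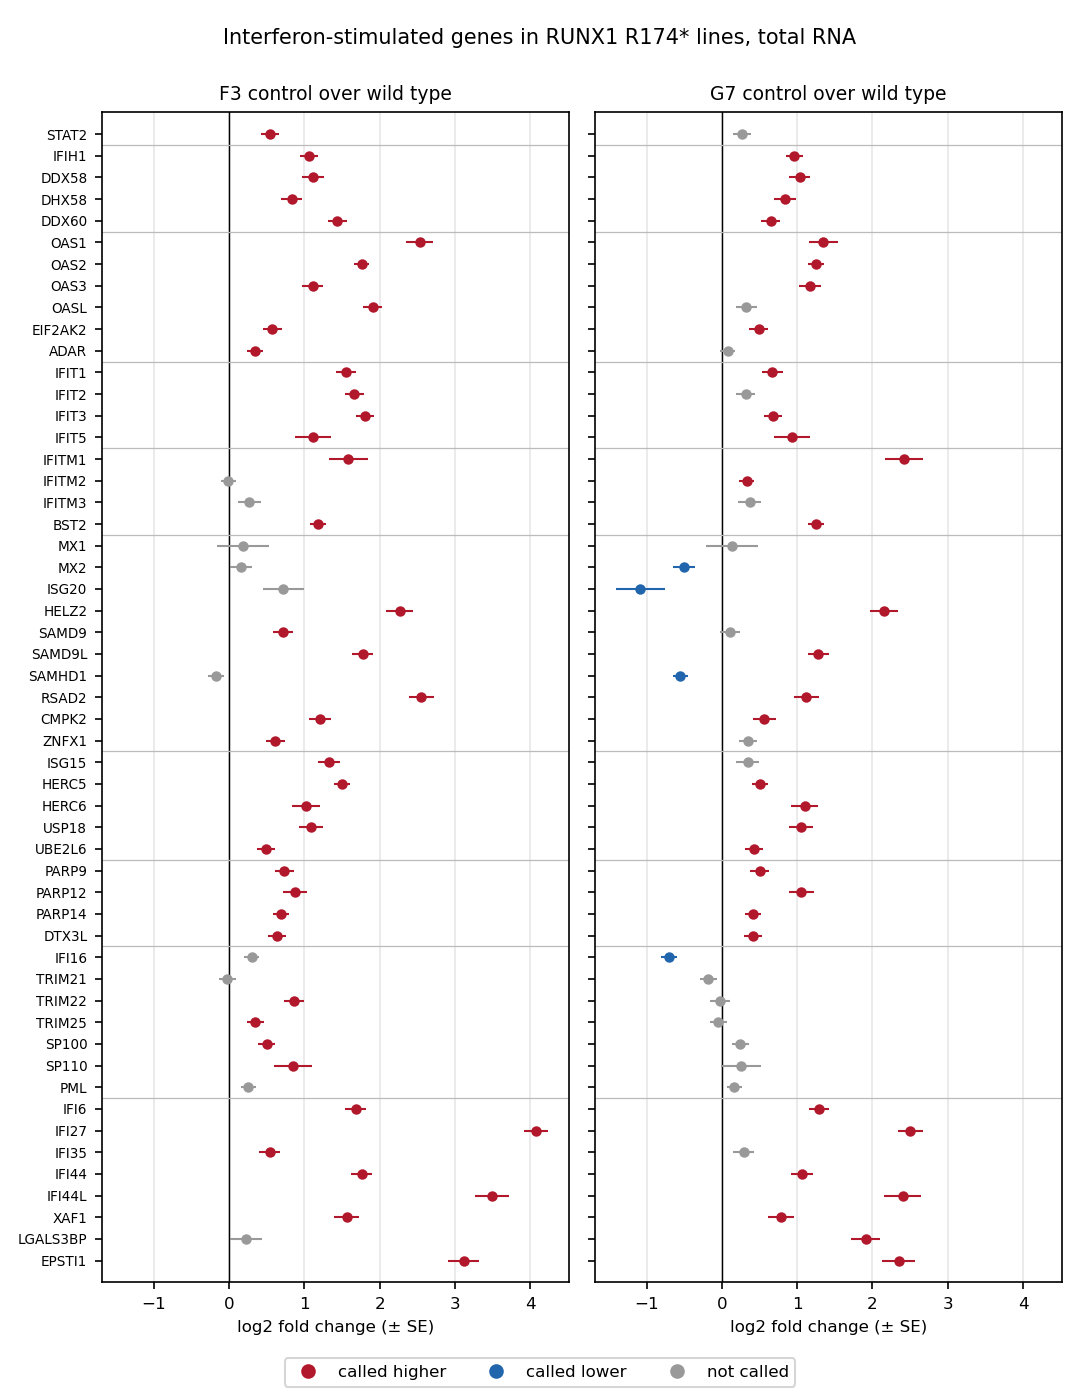
Log2 fold change (horizontal axis, ± SE) of each of the 53 genes in F3 controls (left) and G7 controls (right) over wild type, total RNA, with 2 libraries per group; red is called higher, blue called lower and grey not called, and lines divide the roles. In F3 43 genes are red and 0 blue, and in G7 33 are red and 4 blue (MX2, ISG20, SAMHD1 and IFI16).

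Among the cytosolic sensors, all 4 genes were called higher in both lines. IFIH1 (MDA5, a sensor of long double-stranded RNA) had 33.6 and 33.9 CPM in F3 controls, 31.1 and 32.1 CPM in G7 controls and 15.7 and 16.5 CPM in wild type. DDX58 (RIG-I, a sensor of RNA ends) had 20 and 19.5 CPM in F3 controls, 17.3 and 20.1 CPM in G7 controls and 9.45 and 8.69 CPM in wild type. The mutant libraries of both genes did not overlap wild type, and the log2 fold changes were close in the 2 lines, at 1.06 ± 0.12 (SE) and 0.96 ± 0.12 for IFIH1 and 1.11 ± 0.14 and 1.04 ± 0.14 for DDX58 in F3 and G7. DHX58 (LGP2, a regulator of both sensors) had log2 fold changes of 0.83 ± 0.14 in F3 and 0.84 ± 0.15 in G7, and DDX60, a helicase that promotes RIG-I signalling, had 1.44 ± 0.13 and 0.65 ± 0.13. STAT2, the transducer, had 112 and 91.2 CPM in F3 controls, 91.4 and 76.5 CPM in G7 controls and 69.5 and 69 CPM in wild type. All 4 mutant values of STAT2 lay above wild type, but the rise was called in F3 (log2 fold change 0.54 ± 0.12, adjusted p 0.00555) and not in G7 (0.27 ± 0.12, adjusted p 0.152), and in F3 it was lost without F3 control 1 (adjusted p 0.157).

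The OAS enzymes make the 2-5A messenger that activates RNase L. OAS1 had 14 and 14 CPM in F3 controls, 6.41 and 5.93 CPM in G7 controls and 2.42 and 2.4 CPM in wild type. OAS2 had 180 and 181 CPM in F3 controls, 122 and 131 CPM in G7 controls and 52 and 54 CPM in wild type. OASL, a relative without that enzyme activity that enhances RIG-I signalling, had 42.5 and 46.4 CPM in F3 controls, 15.9 and 13.8 CPM in G7 controls and 12.4 and 11.2 CPM in wild type. For all 3 genes the lines and the parent stood in the same order with no overlap, F3 highest and wild type lowest. Their log2 fold changes in F3 were 2.53 ± 0.18, 1.76 ± 0.10 and 1.90 ± 0.13, and in G7 OAS1 and OAS2 were called at 1.35 ± 0.19 and 1.25 ± 0.10 while OASL was not (0.33 ± 0.14, adjusted p 0.113). OAS3 differed from this order, with 28.5 and 25.7 CPM in F3 controls, 28.3 and 28.4 CPM in G7 controls and 10.6 and 14.3 CPM in wild type, and it was called higher in both lines (1.11 ± 0.14 and 1.17 ± 0.14). EIF2AK2 (PKR, which halts translation on double-stranded RNA) was called at 0.57 ± 0.13 in F3 and 0.49 ± 0.13 in G7, and neither call held without wild-type replicate 1 (adjusted p 0.0543 and 0.154). ADAR, an RNA-editing enzyme, was called in F3 at 0.35 ± 0.10, a call lost without wild-type replicate 1 or either F3 control (adjusted p up to 0.275).

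The IFIT proteins bind foreign RNA ends and block their translation. IFIT1 had 27.5 and 32.9 CPM in F3 controls, 16.3 and 16.5 CPM in G7 controls and 10.7 and 9.79 CPM in wild type. IFIT2 had 46 and 50.2 CPM in F3 controls, 17.3 and 20.5 CPM in G7 controls and 15.7 and 14.6 CPM in wild type. IFIT3 had 65.6 and 73.7 CPM in F3 controls, 30.5 and 33.5 CPM in G7 controls and 20.5 and 19.1 CPM in wild type. F3 was highest for all 3 genes and no group overlapped another, and the G7 values of IFIT2 lay just above wild type. The F3 log2 fold changes were 1.55 ± 0.14, 1.66 ± 0.13 and 1.80 ± 0.12, all called, and the G7 ones were 0.67 ± 0.14 and 0.68 ± 0.12 for IFIT1 and IFIT3, both called, and 0.31 ± 0.13 for IFIT2, which was not (adjusted p 0.111). IFIT5, at a lower level, was called at 1.12 ± 0.24 in F3 and 0.93 ± 0.24 in G7, and the G7 call was lost without wild-type replicate 2 or G7 control 4 (adjusted p up to 0.0943).

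The membrane-bound restriction factors split by gene. BST2 (tetherin, which holds budding virions at the cell surface) had 189 and 204 CPM in F3 controls, 203 and 210 CPM in G7 controls and 92.2 and 80.3 CPM in wild type. IFITM1, which with its relatives blocks fusion of viral and cell membranes, had 2.9 and 3.44 CPM in F3 controls, 5.65 and 5.67 CPM in G7 controls and 1.04 and 1.05 CPM in wild type. IFITM2 had 153 and 172 CPM in F3 controls, 198 and 214 CPM in G7 controls and 166 and 160 CPM in wild type. BST2 was called at 1.18 ± 0.11 in F3 and 1.25 ± 0.11 in G7, and IFITM1 at 1.58 ± 0.27 and 2.42 ± 0.25, with no overlap with wild type. IFITM2 overlapped wild type in F3 (-0.01 ± 0.10) and was called in G7 at 0.33 ± 0.10, a call lost when any of 5 of the 6 libraries was left out (adjusted p up to 0.143). IFITM3 had 10.3 and 9.65 CPM in F3 controls, 10.6 and 10.8 CPM in G7 controls and 8.46 and 7.99 CPM in wild type, above wild type in all 4 but called in neither line (0.27 ± 0.15 and 0.37 ± 0.15).

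Of the 10 genes grouped as direct restriction factors, 6 were called higher in F3, and in G7 4 were called higher and 3 lower. HELZ2, a nuclear co-activator helicase, had 26 and 21.9 CPM in F3 controls, 25.5 and 19 CPM in G7 controls and 5.49 and 4.45 CPM in wild type. RSAD2 (viperin, which makes a chain-terminating nucleotide) had 28.5 and 26.4 CPM in F3 controls, 11.1 and 9.27 CPM in G7 controls and 5.11 and 4.2 CPM in wild type. SAMD9L, a growth restrainer of blood cells, had 46.2 and 38 CPM in F3 controls, 30.5 and 29.2 CPM in G7 controls and 11 and 13.4 CPM in wild type. None of these overlapped wild type, and the log2 fold changes in F3 and G7 were 2.26 ± 0.18 and 2.15 ± 0.18 for HELZ2, 2.55 ± 0.16 and 1.12 ± 0.17 for RSAD2, and 1.77 ± 0.14 and 1.28 ± 0.14 for SAMD9L. CMPK2, the mitochondrial kinase next to RSAD2, was called at 1.21 ± 0.15 and 0.57 ± 0.15, the G7 call being lost without G7 control 3 (adjusted p 0.167). SAMD9 and the helicase ZNFX1 were called in F3 alone (0.71 ± 0.13 and 0.61 ± 0.12), with 0.11 ± 0.13 and 0.35 ± 0.12 in G7.

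The 4 genes called lower in G7 went against most of the list. SAMHD1, which drains the cell's nucleotide pool, had 67.3 and 71.9 CPM in F3 controls, 52.7 and 54.5 CPM in G7 controls and 76.7 and 79.2 CPM in wild type. IFI16, a nuclear DNA sensor, had 83.5 and 83 CPM in F3 controls, 42.1 and 40.9 CPM in G7 controls and 66 and 68.4 CPM in wild type. MX2, a GTPase that blocks HIV nuclear entry, had 15 and 13.5 CPM in F3 controls, 8.94 and 9.05 CPM in G7 controls and 11.9 and 13.5 CPM in wild type. G7 was the lowest group for each of them, and the G7 log2 fold changes were -0.55 ± 0.10 for SAMHD1, -0.70 ± 0.10 for IFI16 and -0.50 ± 0.15 for MX2. ISG20, an RNA exonuclease, fell by 1.08 ± 0.33 in G7 on 0.969 and 0.741 CPM, against 1.65 and 1.95 CPM in wild type. DESeq2 called 2 genes lower here, the MX2 call was lost without wild-type replicate 2 or either G7 control (adjusted p up to 0.141), and the ISG20 call without wild-type replicate 2 or G7 control 4 (adjusted p up to 0.142). MX1, the classical influenza restriction factor, stayed near the floor, with 1.69 and 1.23 CPM in F3 controls, 1.72 and 1.11 CPM in G7 controls and 1.1 and 1.45 CPM in wild type. Its groups overlapped and it was not called in either line (0.18 ± 0.34 and 0.14 ± 0.35).

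All 5 genes of ISG15 conjugation were called higher in F3 and 4 of them in G7. ISG15, the ubiquitin-like modifier, had 50.5 and 57.3 CPM in F3 controls, 24.2 and 30.2 CPM in G7 controls and 24.5 and 18.1 CPM in wild type. Its F3 libraries lay above all others, and G7 overlapped wild type, with log2 fold changes of 1.33 ± 0.15 (adjusted p 8.08e-06) in F3 and 0.34 ± 0.15 (adjusted p 0.13) in G7. HERC5, the ligase that attaches ISG15, had 135 and 143 CPM in F3 controls, 65.9 and 73.3 CPM in G7 controls and 48 and 49.7 CPM in wild type. USP18, which removes ISG15 and dampens receptor signalling, had 12.3 and 11.9 CPM in F3 controls, 11.4 and 12.2 CPM in G7 controls and 5.88 and 5.4 CPM in wild type. The log2 fold changes in F3 and G7 were 1.50 ± 0.11 and 0.50 ± 0.11 for HERC5 and 1.09 ± 0.16 and 1.05 ± 0.16 for USP18, all called and without overlap. HERC6 was called at 1.02 ± 0.18 and 1.10 ± 0.18. The conjugating enzyme UBE2L6 was called at 0.49 ± 0.12 and 0.42 ± 0.12, and lost the call in F3 without F3 control 2 (adjusted p 0.127) and in G7 without wild-type replicate 2 or G7 control 4 (adjusted p up to 0.115).

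All 4 genes of ADP-ribosylation were called higher in both lines, at modest size. The log2 fold changes in F3 and G7 were 0.73 ± 0.13 and 0.50 ± 0.13 for PARP9, 0.63 ± 0.12 and 0.42 ± 0.12 for its ubiquitin-ligase partner DTX3L, 0.88 ± 0.16 and 1.06 ± 0.16 for PARP12, and 0.69 ± 0.11 and 0.41 ± 0.11 for PARP14. In G7 the PARP9 call was lost without G7 control 4 (adjusted p 0.0596), and those of DTX3L and PARP14 without wild-type replicate 1 (adjusted p 0.213 and 0.124). Fewer calls were made among the 7 nuclear body and TRIM genes. TRIM22 (0.86 ± 0.13), SP110 (0.85 ± 0.25), SP100 (0.50 ± 0.11) and TRIM25 (0.35 ± 0.11) were called higher in F3. In G7 0 of the 7 were called higher, and IFI16, given above, was called lower. Of these F3 calls only that of TRIM22 held with each library left out in turn. The antibody receptor TRIM21 (-0.03 ± 0.11 and -0.18 ± 0.11) and PML (0.25 ± 0.10 and 0.17 ± 0.10) were not called in F3 or G7.

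The IFI genes held the largest differences. IFI27, a mitochondrial membrane protein widely used as an interferon marker, had 42.4 and 46.8 CPM in F3 controls, 14.1 and 15.9 CPM in G7 controls and 2.8 and 2.45 CPM in wild type. IFI44L had 11.7 and 11 CPM in F3 controls, 4.79 and 5.82 CPM in G7 controls and 1.1 and 0.899 CPM in wild type. EPSTI1 had 15.3 and 14.9 CPM in F3 controls, 8.62 and 9.21 CPM in G7 controls and 2.2 and 1.3 CPM in wild type. The 3 groups stood apart in the same order for each, with log2 fold changes in F3 and G7 of 4.08 ± 0.16 and 2.50 ± 0.17 for IFI27, 3.49 ± 0.23 and 2.40 ± 0.25 for IFI44L, and 3.11 ± 0.21 and 2.35 ± 0.22 for EPSTI1. IFI6, which keeps cells from apoptosis, had 57.9 and 56.3 CPM in F3 controls, 47.4 and 39.9 CPM in G7 controls and 19.8 and 15.7 CPM in wild type. Both lines lay above wild type, at 1.68 ± 0.13 and 1.29 ± 0.13. IFI44 had 29.2 and 30.8 CPM in F3 controls, 16.7 and 20.3 CPM in G7 controls and 8.57 and 8.99 CPM in wild type. IFI44 and the apoptosis factor XAF1 were called in both lines (1.76 ± 0.14 and 1.07 ± 0.14 for IFI44, 1.56 ± 0.17 and 0.79 ± 0.17 for XAF1). IFI35 was called in F3 at 0.54 ± 0.14, and that call was lost without wild-type replicate 2 or either F3 control (adjusted p up to 0.114). LGALS3BP, a secreted glycoprotein, ran the other way between lines, with 3.58 and 3.08 CPM in F3 controls, 11.1 and 10.2 CPM in G7 controls and 2.75 and 2.9 CPM in wild type. It was called in G7 alone (1.91 ± 0.19, against 0.23 ± 0.21 in F3).

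Setting the lines against each other, 24 of the 53 genes were called lower in G7 controls than in F3 controls and 3 higher, beside 7.03% and 5.46% of all genes, with a median log2 difference of -0.28 over the 53 and 0.01 over all genes. The 3 higher in G7 were LGALS3BP (1.68 ± 0.18), IFITM1 (0.83 ± 0.21) and IFITM2 (0.34 ± 0.10). ISG20 had the largest negative difference, -1.80 ± 0.30, on levels under 5 CPM. Among the lower genes with at least 5 CPM in F3, OASL differed by -1.58 ± 0.13, IFI27 by -1.57 ± 0.13, RSAD2 by -1.43 ± 0.15, IFIT2 by -1.35 ± 0.12, OAS1 by -1.18 ± 0.16, IFIT3 by -1.12 ± 0.11 and IFI44L by -1.09 ± 0.17. IFI16 (-1.01 ± 0.10) and ISG15 (-0.99 ± 0.14) followed, with HERC5 between them, and the F3 and G7 libraries of ISG20 and of these 10 genes stood apart. The sensors IFIH1, DDX58 and DHX58, USP18, HERC6, HELZ2, BST2 and OAS3 were not called between lines, with differences of -0.11 to 0.08. These comparisons reuse the control libraries of the comparisons with wild type. Of the 27 calls, 19 held with each library left out in turn. Without F3 control 1 the counts were 18 lower and 1 higher.

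Pooling the 4 mutant controls against the 2 wild-type libraries, 25 genes were called higher and 0 lower, beside 2.49% and 2.07% of all genes. At an unadjusted p under 0.05 there were 41 higher and 1 lower, and DESeq2 called 31 and 0. The pooled fit counts the difference between F3 and G7 as spread, so genes such as IFI27 (log2 fold change 3.49 ± 0.58, adjusted p 0.0132) were called with a wide error, and IFIT3 (1.35 ± 0.36, adjusted p 0.0651) was not called. Without either wild-type library 4 genes were called higher. BST2 (1.21 ± 0.10) and HELZ2 (2.21 ± 0.19) were the 2 genes whose call held with each of the 6 libraries left out.

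**Figure D2:**
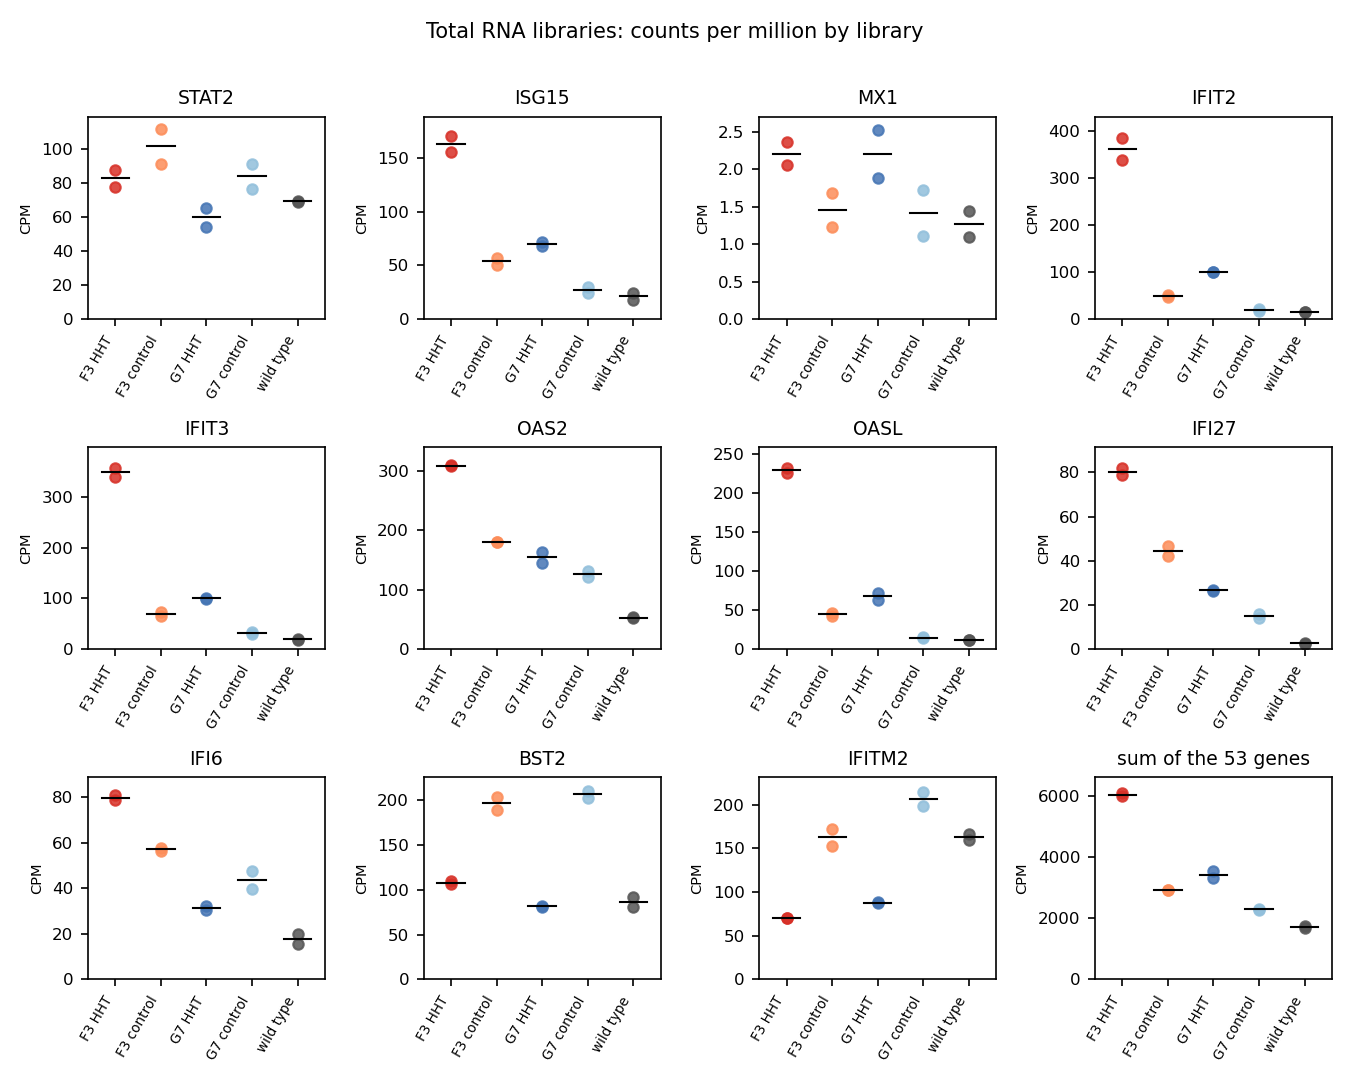
TMM-scaled CPM (vertical axis, linear from 0) in each of the 10 total RNA libraries for 11 of the genes and for the sum of all 53; dots are libraries, bars the mean of 2, and groups run F3 HHT, F3 control, G7 HHT, G7 control and wild type. IFIT2, IFIT3 and OASL are highest under HHT in F3, whereas BST2 and IFITM2 are lower under HHT than in controls of both lines.

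The second question is what 8 h of HHT did in the mutant lines. The summed level of the 53 genes was 5987 and 6070 CPM in F3 HHT, against 2924 and 2913 CPM in F3 controls, and 3524 and 3298 CPM in G7 HHT, against 2272 and 2301 CPM in G7 controls. Over both lines, with line as a term, 42 genes were called higher under HHT and 10 lower. HHT moved most of the transcriptome, and 39.5% of all 14435 genes tested were called higher and 38.4% lower, so that a called gene is not in itself unusual here. The median log2 fold change was 1.14 over the 53 genes and -0.004 over all genes. Within F3 42 were called higher and 8 lower, beside 37.3% and 34.5% of all genes, and within G7 39 were called higher and 10 lower, beside 36.2% and 35.0%. The lines share no library here, and 39 genes were called higher in both and 8 lower in both. The share of all genes called the same way in both lines was not counted. Agreement between the lines is therefore not shown to be particular to the 53 genes. When libraries were scaled by their totals alone, the median of all genes under HHT moved by 0.217 and that of the 53 genes to 1.36.

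HELZ2 rose most, with 354 and 325 CPM in F3 HHT, against 26 and 21.9 CPM in F3 controls, and 227 and 195 CPM in G7 HHT, against 25.5 and 19 CPM in G7 controls. Its log2 fold change was 3.82 ± 0.13 in F3 and 3.27 ± 0.13 in G7. IFIT2 had 339 and 386 CPM in F3 HHT, against 46 and 50.2 CPM in F3 controls, and 100 and 99.5 CPM in G7 HHT, against 17.3 and 20.5 CPM in G7 controls. In both lines the HHT libraries of these genes lay far above the controls. IFIT3 had 339 and 357 CPM in F3 HHT, against 65.6 and 73.7 CPM in F3 controls, and 101 and 99.8 CPM in G7 HHT, against 30.5 and 33.5 CPM in G7 controls. IFIT1 had 108 and 115 CPM in F3 HHT, against 27.5 and 32.9 CPM in F3 controls, and 37.2 and 35.4 CPM in G7 HHT, against 16.3 and 16.5 CPM in G7 controls. All 4 IFIT genes rose in both lines, at 2.91 ± 0.09 and 2.42 ± 0.10 for IFIT2, 2.32 ± 0.08 and 1.67 ± 0.09 for IFIT3, 1.88 ± 0.09 and 1.17 ± 0.10 for IFIT1, and 2.83 ± 0.13 and 2.19 ± 0.13 for IFIT5 in F3 and G7. IFIT5 had 29.3 and 31 CPM in F3 HHT, against 4.06 and 4.42 CPM in F3 controls, and 17.2 and 16.5 CPM in G7 HHT, against 3.45 and 4.02 CPM in G7 controls.

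The OAS family and the sensors rose too. OASL had 226 and 232 CPM in F3 HHT, against 42.5 and 46.4 CPM in F3 controls, and 72.1 and 63.3 CPM in G7 HHT, against 15.9 and 13.8 CPM in G7 controls. OAS1 had 68 and 70.9 CPM in F3 HHT, against 14 and 14 CPM in F3 controls, and 32 and 27.8 CPM in G7 HHT, against 6.41 and 5.93 CPM in G7 controls. OAS2, already high in the lines, had 308 and 309 CPM in F3 HHT, against 180 and 181 CPM in F3 controls, and 164 and 145 CPM in G7 HHT, against 122 and 131 CPM in G7 controls. No HHT library overlapped the controls of its line, and OASL and OAS1 rose by nearly the same factor in the 2 lines, at 2.37 ± 0.09 and 2.31 ± 0.10 in F3 and 2.21 ± 0.10 and 2.30 ± 0.12 in G7. OAS2 rose less, at 0.77 ± 0.08 in F3 and 0.31 ± 0.08 in G7, where the call was lost without G7 HHT 3 (adjusted p 0.0584). The log2 rises in F3 and G7 were 1.40 ± 0.08 and 0.87 ± 0.08 for IFIH1, 1.71 ± 0.09 and 0.86 ± 0.10 for DDX58, and 1.86 ± 0.10 and 1.10 ± 0.11 for DHX58. DDX60 had 0.34 ± 0.09 and 0.20 ± 0.09, called in F3, where it was lost without F3 control 2 (adjusted p 0.0648), and not in G7. ADAR rose by 0.59 ± 0.08 in each line and EIF2AK2 by 1.00 ± 0.08 and 0.71 ± 0.08.

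PARP9, SAMD9, PARP12, MX2 and ISG20 were among the other large rises. PARP9 had 159 and 161 CPM in F3 HHT, against 22.6 and 25.2 CPM in F3 controls, and 97.1 and 92.2 CPM in G7 HHT, against 19.4 and 21.3 CPM in G7 controls. SAMD9 had 194 and 209 CPM in F3 HHT, against 40.2 and 37.4 CPM in F3 controls, and 122 and 122 CPM in G7 HHT, against 24.4 and 26.7 CPM in G7 controls. PARP12 had 62.6 and 57.5 CPM in F3 HHT, against 10.5 and 10.7 CPM in F3 controls, and 45.5 and 40 CPM in G7 HHT, against 12.3 and 11.8 CPM in G7 controls. The groups stood apart for all 3 genes, and the log2 fold changes in F3 and G7 were 2.75 ± 0.09 and 2.24 ± 0.09 for PARP9, 2.37 ± 0.08 and 2.27 ± 0.09 for SAMD9, and 2.50 ± 0.10 and 1.85 ± 0.10 for PARP12. MX2 had 67 and 66.2 CPM in F3 HHT, against 15 and 13.5 CPM in F3 controls, and 31.7 and 26.2 CPM in G7 HHT, against 8.94 and 9.05 CPM in G7 controls, and rose by 2.22 ± 0.11 and 1.71 ± 0.12. IFI16 and MX2, which were called lower in G7 controls than in wild type, both rose under HHT, IFI16 by 1.32 ± 0.08 and 1.27 ± 0.08. ISG20 had 15.1 and 13.7 CPM in F3 HHT, against 3.21 and 2.77 CPM in F3 controls, and 3.41 and 2.71 CPM in G7 HHT, against 0.969 and 0.741 CPM in G7 controls. It rose by 2.26 ± 0.17 in F3 and 1.85 ± 0.26 in G7 on low levels. MX1 had 2.36 and 2.06 CPM in F3 HHT, against 1.69 and 1.23 CPM in F3 controls, and 2.53 and 1.89 CPM in G7 HHT, against 1.72 and 1.11 CPM in G7 controls. At 46 to 58 reads per HHT library it was called over both lines (0.63 ± 0.21) and in neither line alone, and the joint call was lost without F3 control 2 or G7 control 4 (adjusted p up to 0.0522).

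ISG15 had 156 and 170 CPM in F3 HHT, against 50.5 and 57.3 CPM in F3 controls, and 71.8 and 67.8 CPM in G7 HHT, against 24.2 and 30.2 CPM in G7 controls. It rose by 1.60 ± 0.10 in F3 and 1.38 ± 0.10 in G7, while 2 of the enzymes that attach it fell. HERC5 had 92.7 and 101 CPM in F3 HHT, against 135 and 143 CPM in F3 controls, and 32.1 and 32.4 CPM in G7 HHT, against 65.9 and 73.3 CPM in G7 controls. UBE2L6 had 33.8 and 33.4 CPM in F3 HHT, against 55 and 62.3 CPM in F3 controls, and 25.6 and 22.7 CPM in G7 HHT, against 52.4 and 59.9 CPM in G7 controls. The log2 fold changes were -0.53 ± 0.08 and -1.09 ± 0.09 for HERC5 and -0.80 ± 0.10 and -1.19 ± 0.10 for UBE2L6 in F3 and G7. HERC6 rose in both lines (1.88 ± 0.12 and 1.34 ± 0.13), and USP18 rose by 1.16 ± 0.10 in F3 and 0.31 ± 0.11 in G7, where the call was lost without G7 control 3 or G7 HHT 3 (adjusted p up to 0.104).

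BST2, IFITM2 and IFITM3 fell with HHT in both lines. BST2 had 106 and 110 CPM in F3 HHT, against 189 and 204 CPM in F3 controls, and 82.2 and 80.9 CPM in G7 HHT, against 203 and 210 CPM in G7 controls. IFITM2 had 70.7 and 70.3 CPM in F3 HHT, against 153 and 172 CPM in F3 controls, and 87.7 and 88.1 CPM in G7 HHT, against 198 and 214 CPM in G7 controls. IFITM3 had 5.4 and 7.74 CPM in F3 HHT, against 10.3 and 9.65 CPM in F3 controls, and 6.03 and 7.4 CPM in G7 HHT, against 10.6 and 10.8 CPM in G7 controls. All HHT libraries lay below the controls of their line for the 3 genes, with log2 fold changes in F3 and G7 of -0.86 ± 0.07 and -1.32 ± 0.08 for BST2, -1.20 ± 0.08 and -1.21 ± 0.08 for IFITM2, and -0.60 ± 0.17 and -0.65 ± 0.17 for IFITM3. The IFITM3 fall in F3 was lost without F3 HHT 1 (adjusted p 0.106). IFITM1 had 2.62 and 2.84 CPM in F3 HHT, against 2.9 and 3.44 CPM in F3 controls, and 3.71 and 4.69 CPM in G7 HHT, against 5.65 and 5.67 CPM in G7 controls. Its joint value of -0.32 ± 0.14 was called lower, but the call was lost without any of 7 of the 8 libraries (adjusted p up to 0.188) and with scaling by library totals (-0.11, adjusted p 0.483). LGALS3BP fell most, with 0.472 and 0.43 CPM in F3 HHT, against 3.58 and 3.08 CPM in F3 controls, and 1.4 and 0.987 CPM in G7 HHT, against 11.1 and 10.2 CPM in G7 controls, at -2.87 ± 0.29 and -3.14 ± 0.21.

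SAMHD1 had 45.8 and 50.1 CPM in F3 HHT, against 67.3 and 71.9 CPM in F3 controls, and 34.3 and 32.1 CPM in G7 HHT, against 52.7 and 54.5 CPM in G7 controls, and it fell by 0.54 ± 0.08 and 0.67 ± 0.09 on the log2 scale. STAT2 had 87.9 and 77.7 CPM in F3 HHT, against 112 and 91.2 CPM in F3 controls, and 65.6 and 54 CPM in G7 HHT, against 91.4 and 76.5 CPM in G7 controls. Its joint log2 fold change was -0.38 ± 0.09 and that of TRIM25 -0.31 ± 0.08, and scaling by library totals ended both calls (STAT2 -0.16, adjusted p 0.151, and TRIM25 -0.09, adjusted p 0.347). Within lines the STAT2 fall was lost in F3 without F3 control 1 or F3 HHT 2 (adjusted p up to 0.277) and in G7 without G7 HHT 4 (adjusted p 0.0541). Unlike TRIM25, TRIM21 (1.50 ± 0.08 and 1.08 ± 0.08), TRIM22 (1.25 ± 0.10 and 1.32 ± 0.10), SP110 (1.81 ± 0.15 and 1.63 ± 0.17) and SP100 (0.53 ± 0.09 and 0.43 ± 0.09) rose in both lines. The IFI genes rose in F3 without exception among IFI27 (0.85 ± 0.09), IFI44 (1.99 ± 0.09), IFI44L (1.93 ± 0.12), IFI35 (0.58 ± 0.10), EPSTI1 (1.83 ± 0.09) and IFI6 (0.48 ± 0.09). IFI27 had 78.8 and 81.9 CPM in F3 HHT, against 42.4 and 46.8 CPM in F3 controls, and 26.4 and 26.8 CPM in G7 HHT, against 14.1 and 15.9 CPM in G7 controls. EPSTI1 had 53.7 and 53.7 CPM in F3 HHT, against 15.3 and 14.9 CPM in F3 controls, and 30 and 31.6 CPM in G7 HHT, against 8.62 and 9.21 CPM in G7 controls. Both rose in G7 too, by 0.85 ± 0.10 and 1.81 ± 0.10, with no overlap.

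**Figure D3:**
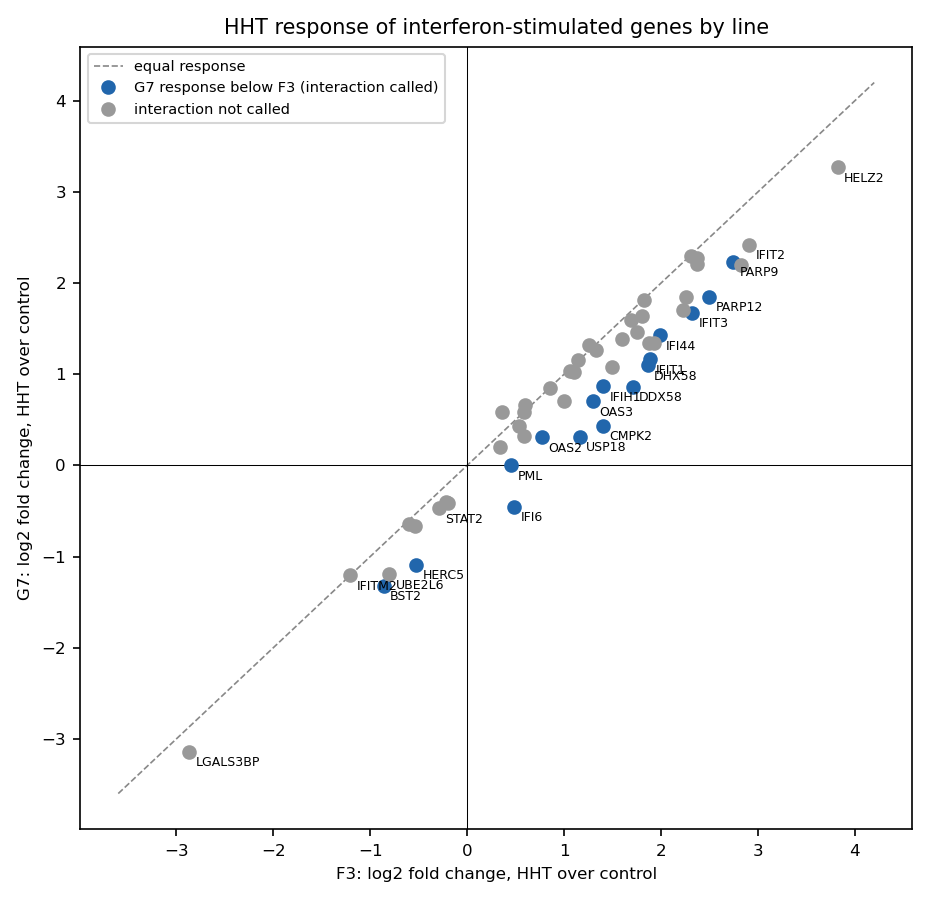
Log2 fold change of HHT over control for each of the 53 genes in F3 (horizontal axis) and G7 (vertical axis), with the dashed line marking an equal response; blue dots are the 16 genes whose response was called lower in G7 than in F3, and grey dots were not called. Most dots lie below the dashed line (47 of 53), and IFI6 is called higher in F3 and lower in G7.

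A test of the difference in response between lines called 16 of the 53 genes lower in G7 than in F3 and 0 higher, beside 2.0% and 1.79% of all genes. At an unadjusted p under 0.05 edgeR gave 26 lower and 0 higher, and DESeq2 called 19 lower and 0 higher. The log2 fold change was below that of F3 for 47 of the 53 genes, including 34 of the 39 called higher in both lines, and the median difference was -0.28 over the 53 and 0.004 over all genes. IFI6 showed opposite directions, with 78.8 and 80.9 CPM in F3 HHT, against 57.9 and 56.3 CPM in F3 controls, and 32.1 and 30.7 CPM in G7 HHT, against 47.4 and 39.9 CPM in G7 controls. The response differed by -0.94 ± 0.13 (adjusted p 0.000894), although the G7 fall alone was not called with library-total scaling (-0.23, adjusted p 0.0519). CMPK2 had 61.5 and 65.1 CPM in F3 HHT, against 24.1 and 23.7 CPM in F3 controls, and 20.8 and 19.8 CPM in G7 HHT, against 17.2 and 13.3 CPM in G7 controls, a difference of -0.97 ± 0.16. DDX58 and USP18 differed by -0.85 ± 0.13 and -0.85 ± 0.15. These 4 were the genes whose call held with each of the 8 libraries left out in turn. The others lost their call in at least 1 such fit. Among them, DHX58 (-0.76 ± 0.15), IFIT1 (-0.71 ± 0.14), IFIT3 (-0.65 ± 0.12) and PARP12 (-0.65 ± 0.15) were called, and without F3 control 1 only 4 of the 16 calls were made. OAS1 (-0.01 ± 0.17), IFI27 (0.00 ± 0.11), SAMD9L (0.01 ± 0.14) and IFITM2 (0.00 ± 0.11) had differences near 0.

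Genes with the promoter pattern and genes without it can be set side by side as a description. Genes without the exact pattern can hold near variants of it. Over the 25 genes with a match, the median log2 fold change was 1.12 in F3 controls and 0.68 in G7 controls over wild type, beside 0.79 and 0.46 over the 18 genes without one. Under HHT the medians were 1.14 with and 1.01 without a match. The difference in response between lines had a median of -0.41 with and -0.17 without a match, and 9 of 25 and 3 of 18 of these genes were called.

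Interferon itself was hardly read. Any read was found for 7 of 21 interferon ligand genes, and in untreated libraries the highest count of any of them was 1. IFNB1 (interferon beta) had 15 and 7 reads in F3 HHT, against 1 and 0 reads in F3 controls, and 0 and 2 reads in G7 HHT, against 0 and 1 reads in G7 controls. The ratio of HHT to control counts per total was 21.0 in F3, with an exact 95% interval of 3.39 to 867 that covers counting error only, and 1.88 in G7, with an interval of 0.098 to 111. With no filter on low counts edgeR called the fold change over both lines (adjusted p 0.00251), and the difference between lines was not called (adjusted p 0.898). Within lines the log2 fold change was called in F3 (3.95, adjusted p 0.00155) and not in G7 (0.62, adjusted p 0.879). A rise in G7 is therefore not shown. Ligands other than IFNB1 reached at most 2 reads in any library. Interferon protein was not measured.

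Receptors and transducers outside the 53 moved in both directions. Of the 6 receptor genes, 1 was called higher in F3 controls and 3 lower, and in G7 controls 0 higher and 2 lower. The shares of all genes called higher and lower were 9.51% and 8.54% in F3 and 8.87% and 8.82% in G7. Counts over so few genes are not read as a result about receptors. IFNLR1, the specific chain of the lambda interferon receptor, had 15.7 and 13.5 CPM in F3 controls, 2.85 and 2.81 CPM in G7 controls and 3.85 and 4.7 CPM in wild type. It was highest in F3, with a log2 fold change of 1.76 over wild type, and IFNAR1, a chain of the type I receptor, fell by 0.45 there. Under HHT IFNLR1 rose to 46.4 and 46.8 CPM in F3 HHT and 19.2 and 17.4 CPM in G7 HHT. Its log2 rise was 1.68 ± 0.10 in F3 and 2.71 ± 0.14 in G7, and the response was called larger in G7 (difference 1.03 ± 0.18, adjusted p 0.00434). IFNAR1 fell by 0.54 over both lines. JAK2 and STAT3 rose in F3 controls (0.45 each), and under HHT by 0.64 and 0.31. IRF7, the factor that drives interferon genes, had 62.4 and 57.6 CPM in F3 controls, 38.3 and 30.2 CPM in G7 controls and 21.8 and 17 CPM in wild type. It lay above wild type in both lines (1.62 and 0.81) and reached 248 and 252 CPM in F3 HHT and 138 and 130 CPM in G7 HHT, a rise of 2.02 over both lines. IKBKE, a kinase upstream of it, was called lower in F3 and G7 controls (-0.88 and -1.14).

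Of 13 sensing and induction genes tested in the genotype comparisons, 3 were called higher and 1 lower in F3 and 2 higher and 3 lower in G7. The shares of all genes were 9.51% and 8.54% in F3 and 8.87% and 8.82% in G7. Counts this small are not read as a result about these genes. Under HHT 9 of 15 were called higher and 6 lower, beside 39.5% and 38.4% of all genes, with TMEM173 (STING) at -1.53 and the RIG-I adaptor MAVS at -0.69, and AIM2, IRF7 and MYD88 among the risers. Of the negative regulators, 9 of 14 were called higher and 1 lower under HHT, PIAS3 (1.40) among the higher. Among 51 other interferon-induced genes tested, 20 were called higher and 2 lower in F3 and 11 higher and 4 lower in G7, with medians of 0.28 and 0.07. These counts stand beside the same genotype shares of all genes, 9.51% and 8.54% in F3 and 8.87% and 8.82% in G7. Under HHT 26 of 55 genes of this outside list were called higher, among them PLSCR1 (2.20) and IRF1 (1.24), and 21 lower, among them APOL1 (-2.07) and TDRD7 (-1.42), both shares near those of all genes, and its median was 0.13. Myeloid markers also moved with line and HHT: LYZ was called lower in G7 controls (-1.69) and ELANE higher in F3 and G7 controls (2.96 and 3.95), and 8 of 10 such markers fell under HHT. Their part in the interferon-stimulated gene differences was not tested.

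The third question is whether the genotype difference was also seen on ribosomes. In RiboLace libraries of F3 against wild type, 38 of the 53 genes passed the filter on low counts, and 11 of these were called higher and 1 lower, beside 6.18% and 5.59% of all 9805 genes. The 15 others were too thinly read to test, among them IFI27, IFI44L, EPSTI1, RSAD2 and OAS1, which had large differences in total RNA. Some of the 11 passed the filter only through the F3 libraries, where they were high, and are named below. HELZ2 had 120 and 86.6 CPM in F3 RiboLace, against 22.6 and 25.1 CPM in wild-type RiboLace. SAMD9L had 31.8 and 55.7 CPM in F3 RiboLace, against 12.1 and 6.5 CPM in wild-type RiboLace. OAS2 had 76.1 and 99 CPM in F3 RiboLace, against 43.1 and 31.6 CPM in wild-type RiboLace. The groups stood apart in all 3, and the log2 fold changes were 2.15 ± 0.31, 2.06 ± 0.41 and 1.18 ± 0.30. HELZ2 and SAMD9L were the 2 whose call held with each library left out, and OAS2 lost it without F3 RiboLace 2 (adjusted p 0.138), the shallowest library.

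OASL had 16.7 and 24.8 CPM in F3 RiboLace, against 4.73 and 1.86 CPM in wild-type RiboLace. IFIT3 had 13.4 and 22.7 CPM in F3 RiboLace, against 4.2 and 1.86 CPM in wild-type RiboLace. IFI44 had 18.4 and 28.9 CPM in F3 RiboLace, against 4.73 and 4.64 CPM in wild-type RiboLace. These were the largest of the 11, at 2.42 ± 0.58, 2.32 ± 0.61 and 2.23 ± 0.53, with no overlap. IFIT2 (2.19 ± 0.62), CMPK2 (1.82 ± 0.47), EIF2AK2 (1.19 ± 0.31), SAMD9 (1.10 ± 0.33) and DTX3L (0.95 ± 0.29) completed them. IFIT2 had 15.9 and 10.3 CPM in F3 RiboLace, against 3.68 and 1.86 CPM in wild-type RiboLace. CMPK2 had 25.1 and 26.8 CPM in F3 RiboLace, against 8.4 and 5.57 CPM in wild-type RiboLace. EIF2AK2 had 63.5 and 86.6 CPM in F3 RiboLace, against 32.6 and 31.6 CPM in wild-type RiboLace. Each of these F3 libraries lay above both wild-type ones. SAMD9 had 43.5 and 55.7 CPM in F3 RiboLace, against 24.2 and 20.4 CPM in wild-type RiboLace. DTX3L had 83.6 and 113 CPM in F3 RiboLace, against 56.2 and 42.7 CPM in wild-type RiboLace. All of these calls other than those of HELZ2 and SAMD9L were lost when some library was left out, and without F3 RiboLace 2 just 2 genes were called higher. In wild-type RiboLace OASL had 9 and 2 reads, IFIT3 8 and 2, IFI44 9 and 5, and SAMD9L 23 and 7. OASL, IFIT3, IFI44, SAMD9L, IFIT2 and CMPK2 passed the filter on low counts only through F3, where they were high. Their calls therefore give no separate support for a difference on ribosomes. IFIT3 was called in none of the 4 fits that leave out a library (adjusted p up to 0.268). DESeq2 called 2 higher and 0 lower and gave no adjusted p for 6 of the 12. IFITM2 was the gene called lower, with 75.2 and 82.5 CPM in F3 RiboLace, against 206 and 115 CPM in wild-type RiboLace (-1.05 ± 0.29), and that call was lost in 3 of the 4 fits that leave out a library (adjusted p up to 0.328). BST2, which was higher in F3 total RNA, had 101 and 61.9 CPM in F3 RiboLace, against 104 and 79.8 CPM in wild-type RiboLace, with overlap and a log2 fold change of -0.13 ± 0.28. ISG15 had 25.1 and 14.4 CPM in F3 RiboLace, against 17.9 and 14.8 CPM in wild-type RiboLace (0.36 ± 0.42), and STAT2 39.3 and 30.9 CPM, against 39.4 and 30.6 CPM.

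**Figure D4:**
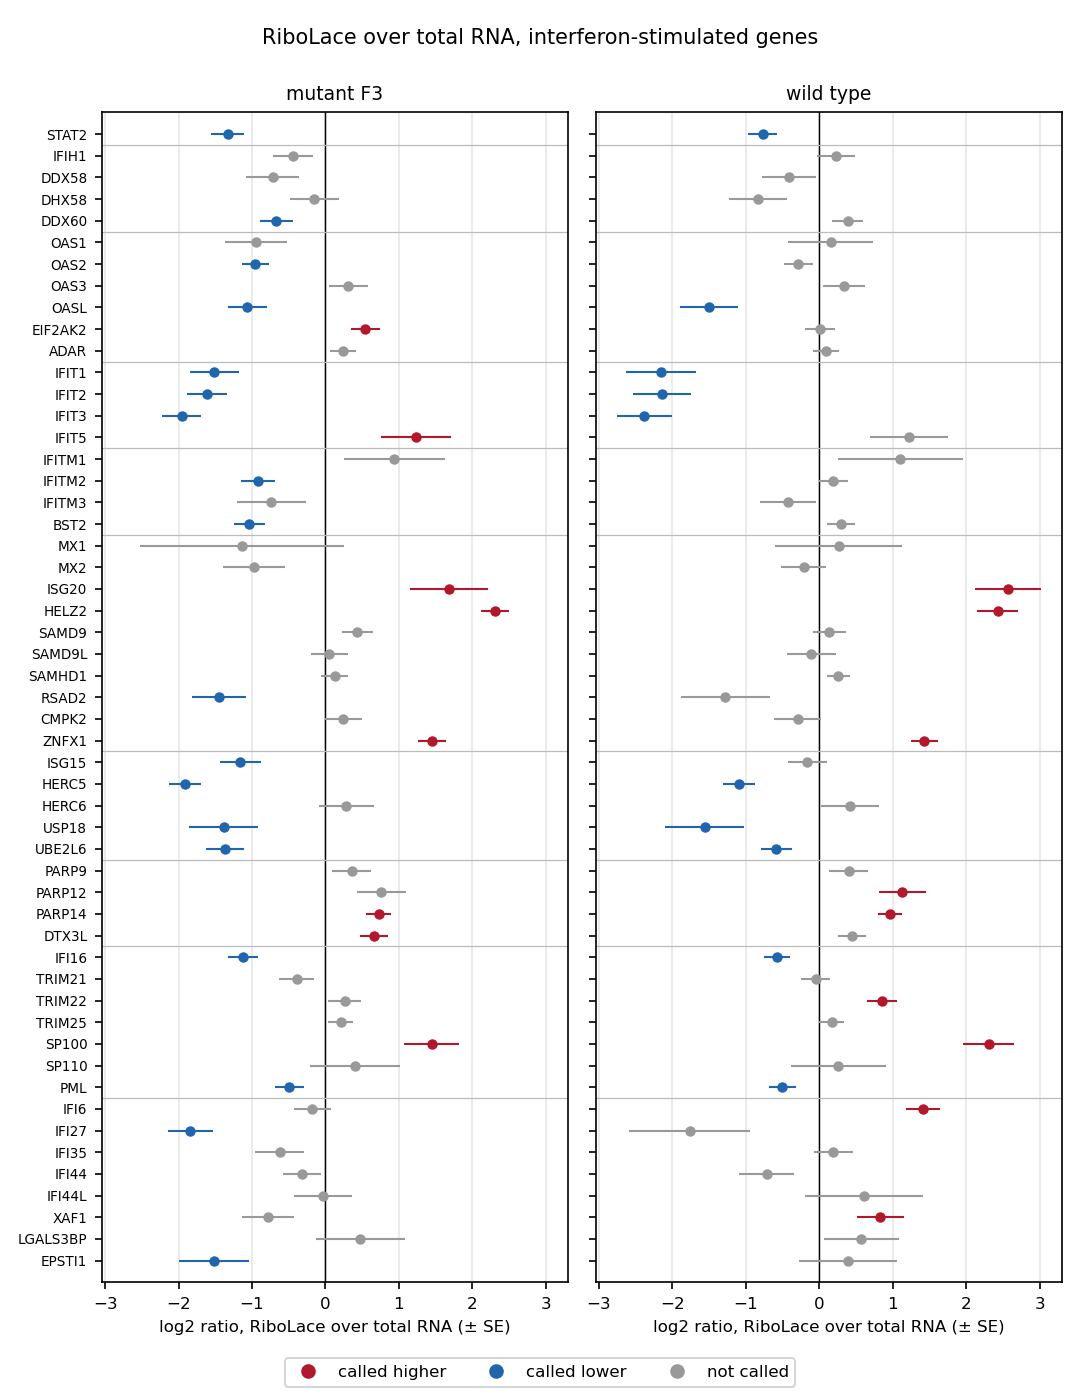
Log2 ratio of RiboLace over total RNA (horizontal axis, ± SE) for each of the 53 genes in mutant F3 (left) and wild type (right), with 2 libraries per assay and genotype; red is called higher in RiboLace, blue called lower and grey not called. IFIT1, IFIT2 and IFIT3 lie to the left in both panels, and HELZ2, ISG20, SP100 and ZNFX1 to the right.

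RiboLace and total RNA differ in protocol and depth, so the ratio of the assays describes relative recovery in the ribosome fraction. In F3, 8 of the 53 genes were called higher in RiboLace than in total RNA and 18 lower, beside 26.5% and 22.7% of all 15338 genes. In wild type 9 were called higher and 10 lower, beside 27.3% and 21.0%. The medians over the 53 genes were -0.39 in F3 and 0.17 in wild type. IFIT3 stood lowest, with 13.4 and 22.7 CPM in F3 RiboLace, against 65.6 and 73.7 CPM in F3 total RNA, and 4.2 and 1.86 CPM in wild-type RiboLace, against 20.5 and 19.1 CPM in wild-type total RNA. IFIT3, IFIT2 and IFIT1 were called lower in both genotypes, at -1.96 ± 0.27, -1.61 ± 0.28 and -1.51 ± 0.34 in F3 and -2.38 ± 0.37, -2.14 ± 0.39 and -2.16 ± 0.48 in wild type, and the F3 call of IFIT1 was lost without F3 RiboLace 1 (adjusted p 0.113). IFIT5 ran the other way (1.23 ± 0.47 in F3, 1.22 ± 0.53 in wild type, called in F3 alone and lost there without any 1 of its 4 F3 libraries). HELZ2 was recovered more in RiboLace in both, at 2.31 ± 0.19 in F3 and 2.43 ± 0.28 in wild type, and so were ZNFX1 (1.45 ± 0.19 and 1.43 ± 0.18) and PARP14 (0.73 ± 0.17 and 0.96 ± 0.17). HELZ2 had 120 and 86.6 CPM in F3 RiboLace, against 26 and 21.9 CPM in F3 total RNA, and 22.6 and 25.1 CPM in wild-type RiboLace, against 5.49 and 4.45 CPM in wild-type total RNA. HERC5 had 27.6 and 45.4 CPM in F3 RiboLace, against 135 and 143 CPM in F3 total RNA, and 19.4 and 21.3 CPM in wild-type RiboLace, against 48 and 49.7 CPM in wild-type total RNA. In both genotypes the RiboLace libraries of HELZ2 lay above total RNA and those of HERC5 below it. HERC5 (-1.91 ± 0.22 and -1.09 ± 0.22), OASL (-1.06 ± 0.27 and -1.50 ± 0.40) and STAT2 (-1.33 ± 0.22 and -0.77 ± 0.20) were recovered less in both, and the F3 call of OASL was lost without F3 RiboLace 1 (adjusted p 0.202). SP100 had 77.7 and 299 CPM in F3 RiboLace and 122 and 302 CPM in wild-type RiboLace, a wide spread between replicates, and without F3 RiboLace 2 its F3 ratio fell short of the call (adjusted p 0.489). ISG20 was called higher in F3 at 1.69 ± 0.53, and without F3 RiboLace 1 the ratio turned to -0.43 and was not called. Without that library 5 genes were called higher and 10 lower in F3, and without F3 RiboLace 2 4 higher and 17 lower.

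The difference of these ratios between genotypes, often called translational efficiency, was called lower in F3 for 2 of the 53 genes and higher for 0, beside 1.01% and 0.482% of all genes. At an unadjusted p under 0.05 edgeR gave 10 lower and 0 higher, and DESeq2 called 2 lower and 0 higher. IFI6 had 56 and 24.8 CPM in F3 RiboLace, against 57.9 and 56.3 CPM in F3 total RNA, and 47.3 and 33.4 CPM in wild-type RiboLace, against 19.8 and 15.7 CPM in wild-type total RNA. Its ratio was lower in F3 by a log2 difference of -1.59 ± 0.34 (adjusted p 0.0219), and that of BST2 by -1.33 ± 0.29 (adjusted p 0.0249). Both genes were higher in F3 total RNA but not called in RiboLace. Each call was lost in 6 of the 8 fits that leave out a library, including the fit without F3 RiboLace 2 and the fit without wild-type RiboLace 1 (adjusted p up to 0.164 for IFI6 and 0.149 for BST2). Without wild-type RiboLace 2, 6 of the 53 genes were called lower. Scaling by library totals moved the median of all genes by 0.134 in this comparison.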

How the data were processed

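Total RNA and RiboLace libraries of OCI-AML2 cells and its RUNX1 mutant lines were analysed from the deposited table of raw read counts per gene. Per the submitters' processing notes, which give names but no roles, STAR 2.6.0b, DESeq2 and GRCh38 were used; for the counting program, its annotation and its use of strand, the sources used here give nothing. Identifiers were paired with symbols through GENCODE 29.

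Genes were filtered with filterByExpr, scaled by TMM and tested with edgeR 4.0.16 (limma 3.58.1, R 4.3.3), quasi-likelihood F-test, with Benjamini-Hochberg adjustment over all genes tested; the scripts were tested on simulated data. Fits compared pooled or separate lines with wild type, HHT with control with line as a term, the response between lines, and RiboLace with total RNA. Each SE was derived from the fold change and its F statistic. Alternatives were DESeq2 1.42.0, other scalings, no filter, a replicate block, single lines and leaving out each library.

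Deviations of HHT and control libraries of the same number correlated at 0.494 to 0.637 (0.277 within F3 and 0.497 within G7) by the numbers in the titles. The column names number some of these libraries differently, so the pairing is uncertain; the counts given use line and no block, and the block left 42 genes higher and 10 lower under HHT. All 53 genes are named by role; per-library values go to a fixed set of 14 genes and to the 10 largest called, non-overlapping changes of at least 5 CPM, and to up to 8 called against the main direction; the per-library values of IFIH1, DDX58, OAS3 and USP18 fall outside this rule and were chosen after their values were seen. Members and lists were chosen with earlier results of these data known.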

Additional observations from a re-analysis of the deposited data

Results flagged for a closer look

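Of 106 groups of 4 libraries tested for a library far from the others, 1 was flagged. Chance flags about 1 in 20 where the 4 libraries are alike, but each group joined 2 libraries of F3 and 2 of G7. Where the lines differ, the rule can hardly flag a library, so the low number of flags does not show that outliers are absent. OAS3 had 25.7 CPM in F3 control 2, while the other 3 mutant controls had 28.3 to 28.5 CPM.

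The HHT response of 16 genes differed between G7 and F3 by the test of the difference itself. In order of size, the log2 difference of G7 minus F3 was -0.97 for CMPK2, -0.94 for IFI6, -0.85 for DDX58, -0.85 for USP18, -0.76 for DHX58, -0.71 for IFIT1, -0.65 for IFIT3 and -0.65 for PARP12. It was -0.59 for OAS3, -0.56 for IFI44, -0.56 for HERC5, -0.53 for IFIH1, -0.51 for PARP9, -0.47 for OAS2, -0.46 for BST2 and -0.45 for PML.

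The ratio of RiboLace to total RNA differed between F3 and wild type for IFI6 (log2 difference -1.59) and BST2 (-1.33), again by the test of the difference itself.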

How the results depend on the processing

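Mutant against wild type with lines pooled depended most on the setting, with 25 genes called higher and 39 with no filter, 45 in F3 alone and 4 to 32 when a library was left out. The 0 called lower became 4 in G7 alone. Same-numbered mutant controls and wild-type libraries did not deviate together (r -0.117 and -0.05). The fit with the replicate block called 43 higher. No wild-type library shares a number with G7, so in that fit G7 adds nothing to the genotype difference. Its count is in effect one of F3 against wild type and not of the pooled lines. IFI16 turned to 0.30 in F3 alone and ISG20 to -1.07 in G7 alone. Leaving out a library gave 2 to 4 genes lower in G7 against wild type (DESeq2 2), 1 to 3 higher in G7 against F3, and 4 to 19 with a lower HHT response in G7. Under HHT in G7 alone, IFI6 turned to -0.46 and PML to -0.0087 (adjusted p 0.938). In RiboLace, F3 against wild type had 2 higher and 0 lower with DESeq2, and 2 to 11 higher and 0 to 1 lower without a library. RiboLace against total RNA in F3 had 4 to 10 higher and 10 to 21 lower without a library, and ISG20 ran between -0.43 and 2.11. The 2 genes of lower translational efficiency became 4 with no filter and 0 to 6 without a library. The cause was not tested. Apart from the headline results, 618 kept their direction and side of the threshold under another size factor. The number was 600 under library totals and 544 under DESeq2. In that order 3, 12 and 17 results lost their call, and 7, 7 and 17 gained one. DESeq2 gave no adjusted p for 21 genes in RiboLace F3 against wild type and 24 in translational efficiency. Fewer results were therefore counted under DESeq2. The filter on low counts left 15 genes out of the RiboLace comparison of F3 with wild type.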
